A study of Homo sapiens with 6 samples.

Results

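The transcripts of 9 genes that store, take up, export and sense iron were followed in PANC-1 cells with and without maslinic acid (MA). The genes were the ferritin chains FTL and FTH1, the uptake genes TFRC, STEAP3 and SLC11A2, the exporter SLC40A1, the regulators ACO1 and IREB2, and the ferritin receptor NCOA4. They are 9 of 58825 gene identifiers measured, each name had 1 identifier, and 8 of them were among the 17774 genes that were tested, those averaging 0.1 FPKM or more. The set was selected on readouts of this same comparison, since FTL was first named after its values under MA had been seen. The changes of these 9 genes under MA are therefore given as a description. No p-value of a member is printed, and calls by p are only counted beside the share of all tested genes.

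PANC-1 is an established human pancreatic carcinoma cell line, and MA is a triterpenoid of olive plants. Poly(A) RNA was sequenced from 3 cultures treated with 40 μM MA for 24 h and from 3 untreated cultures (0 μM) collected at the same time, which the study calls biological replicates. No engineered genetic change is named for either group, and both came from the same cell line at 1 dose and 1 time point. The methods name DMSO as the vehicle, while the labels call the control cells untreated. Total estimated counts were 56978375, 63984133 and 58181114 in MA replicates 1 to 3 and 70275355, 65607669 and 59422939 in PANC-1 replicates 1 to 3. Levels are given as FPKM, the fragments read per kilobase of transcript scaled to the depth of the library, which corrects each gene for its length. In bulk RNA, fewer cells making a transcript and less of it in each cell cannot be told apart.

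Defining markers were checked first. The epithelial keratins KRT18 and KRT8 had mean FPKM values of 310.0 and 197.8 over the 6 samples, and the mesenchymal filament gene VIM had 617.0, whereas KRT19 (0.0533) and EPCAM (0.0713) were close to 0. Of 20 markers of erythroid cells, macrophages, hepatocytes and acinar or duct cells, cells that can hold much iron or its transporters, 0 reached a mean FPKM of 1 and the highest was 0.152, for HBA1. Among 4 fibroblast markers only COL1A1 did, at 4.04. One library stood apart from the rest. On the first principal component of log counts, which held 26.4% of the variance, MA replicate 2 lay at -73.6, with the other MA samples at -29.5 and 16.2 and the PANC-1 samples between 18 and 44.9. That library also had the highest count-weighted GC content, 51.8% against 50.4% to 50.9% in the other 5. Values without it are given for the genes whose call it changes and for several members.

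Cells keep iron that is not in use inside ferritin, a hollow shell built of light (FTL) and heavy (FTH1) chains, of which the heavy chain oxidises iron. Iron bound to transferrin enters through the transferrin receptor (TFRC), is reduced in endosomes by STEAP3 and passes into the cytosol through SLC11A2, while ferroportin (SLC40A1) exports it. When iron is scarce, the iron regulatory proteins IRP1 (made from ACO1) and IRP2 (made from IREB2) bind hairpins called iron-responsive elements (IREs). Binding in a 5′ UTR blocks translation, as in ferritin mRNA, and binding in the 3′ UTR stabilises TFRC mRNA, so that part of this control does not appear in mRNA levels.

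The hairpins are shown as the best known sequence feature by which iron acts on some of these mRNAs. UTRs of GENCODE 29 transcripts (GRCh38) were searched for a bulged C, 5 stem bases, the loop CAGTGN and 5 bases that pair with the first 5 by A-T, G-C or G-T. Sequences are written 5′ to 3′ on the gene's strand, as DNA, with the loop in capitals.
FTL: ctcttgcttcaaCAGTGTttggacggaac
FTH1: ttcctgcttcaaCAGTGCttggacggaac
SLC40A1: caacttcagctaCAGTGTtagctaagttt
TFRC, first in the transcript: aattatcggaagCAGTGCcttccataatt
TFRC, the second: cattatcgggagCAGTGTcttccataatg
TFRC, the third: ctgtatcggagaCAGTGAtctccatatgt
TFRC, the fourth: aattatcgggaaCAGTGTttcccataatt

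The FTL element lies in the 5′ UTR, in exon 1, at chr19:48965335-48965363 on the plus strand. That of FTH1 is in the 5′ UTR at chr11:61967574-61967602 on the minus strand, also in exon 1, and the FTL and FTH1 windows share 26 of 29 bases. The SLC40A1 element is in the 5′ UTR, exon 1, at chr2:189580661-189580689 on the minus strand and shares 14 of 29 bases with that of FTL. All 4 TFRC matches are in the 3′ UTR in exon 18 on the minus strand, at chr3:196050979-196051007, chr3:196050575-196050603, chr3:196050510-196050538 and chr3:196050463-196050491, and pairs of them share between 18 and 25 of 29 bases. Matches were rare: 36 of 19043 genes with a 5′ UTR (0.189%) and 132 of 19136 genes with a 3′ UTR (0.69%) held one. These letters were not found in the UTRs of IREB2, ACO1, NCOA4 or STEAP3. Nor were they found in those of SLC11A2, EPAS1 and CDC42BPA, which are known for an IRE, so the search misses elements that depart from this form. A match is a description of the sequence, not a measurement of binding, and no match says nothing about binding.

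FTL was the most abundant of the 9 transcripts by far. In untreated PANC-1 cells its rank by FPKM among all genes was 18, 19 and 20 in the 3 samples, and after MA it was 14, 14 and 16. FTH1 followed at ranks 100, 110 and 106 without MA and 63, 76 and 84 with it. In untreated cells the mean FPKM fell from FTL (1858 ± 123, SD, n = 3) through FTH1 (244 ± 7.92), TFRC (61.4 ± 8.33), NCOA4 (28.3 ± 1.39), ACO1 (11.0 ± 0.554), STEAP3 (8.48 ± 0.199), SLC11A2 (4.87 ± 0.499) and IREB2 (4.16 ± 0.454) to SLC40A1 (0.0554 ± 0.00502). The order of mean FPKM was the same after MA. In either group SLC11A2 and IREB2 were the only neighbours in this order whose sample ranges overlapped, and all other neighbours were separated. The order of the middle genes depended on the length used: per kilobase of the longest transcript, SLC11A2 (13.6 counts per kilobase, scaled to depth) moved from the seventh place to the fifth in untreated cells, above ACO1 (13.3) and STEAP3 (10.8).

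**Figure D1:**
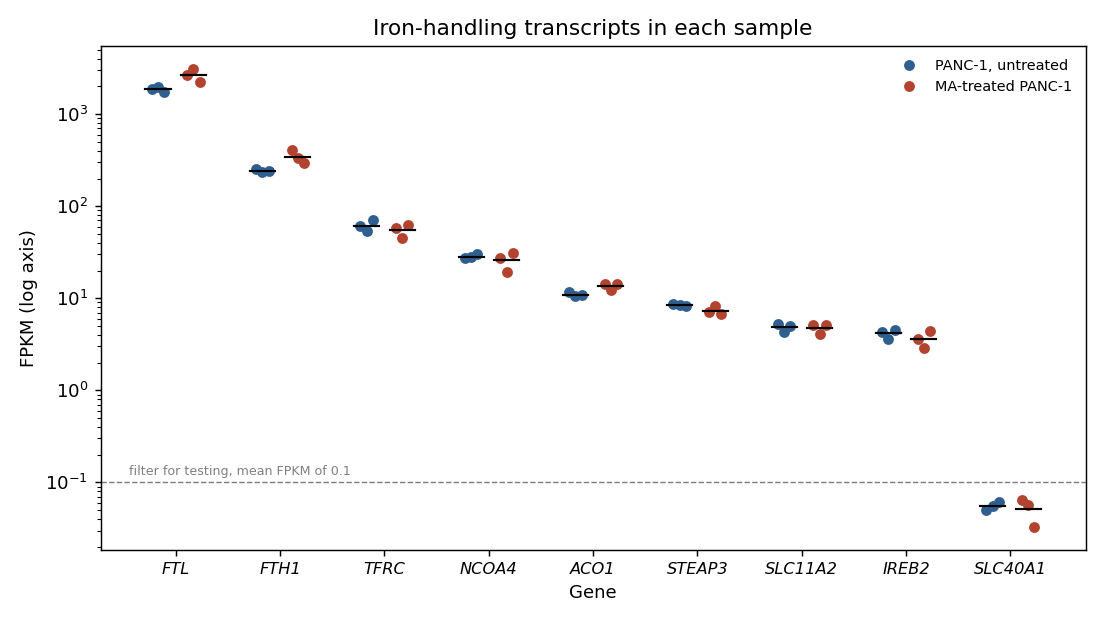
FPKM of the 9 genes (log axis) in each sample, with untreated PANC-1 samples in blue, MA-treated samples in red, and a black line at the mean of each group of 3. FTL and FTH1 lie above all others and higher after MA in all 3 samples, while SLC40A1 lies under the dashed line at the filter of 0.1.

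Ferritin light chain, FTL (ENSG00000087086, chr19:48965309-48966879, plus strand), was read at 2634, 3108 and 2257 FPKM in MA replicates 1 to 3. Untreated replicates 1 to 3 gave 1871, 1974 and 1728 FPKM. The groups did not overlap, MA replicate 2 was the highest sample and the lowest MA sample was above the highest untreated one. The log2 fold change from the edgeR fit was 0.56 (SE 0.15), a 1.48-fold difference. FTL alone made up 0.801% to 1.07% of all FPKM after MA and 0.615% to 0.705% without it. Without MA replicate 2, the library that stood apart, the log2 fold change was 0.39, and with a trend on GC content removed it was 0.45 (GC content of FTL transcripts, 56.3%).

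Ferritin heavy chain, FTH1 (ENSG00000167996, chr11:61959718-61967634, minus strand), reached 404, 336 and 295 FPKM under MA. In untreated cells it was 253, 237 and 243 FPKM. Here too the groups did not overlap, but replicate 1 and not replicate 2 was the highest MA sample, and the MA samples spread more (SD 55.1) than the untreated ones (SD 7.92). The log2 fold change was 0.54 (SE 0.13), 1.45-fold, and 0.52 without MA replicate 2 or 0.45 with the GC trend removed. The ratio of FTL to FTH1 in FPKM was 7.81 ± 1.36 after MA and 7.62 ± 0.634 in untreated cells, and the groups overlapped in this ratio. That ratio rests on the length given to FTH1. Counts per kilobase of the longest transcript gave ratios of 3.97, 5.62 and 4.66 after MA and 4.51, 5.07 and 4.33 without it.

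Both ferritin genes have processed pseudogenes with near-identical sequence, between which reads can be split. For FTL, 16 rows are named as pseudogenes and 5 of them held a count, led by FTLP3 (mean of 121 counts, 97.7% identity to the FTL transcript) and FTLP12 (2.5 counts, 66.6%). All of them together took 0.0787% to 0.0958% of the summed counts. For FTH1, 26 rows named as pseudogenes or FTHL genes gave 13 with a count, led by FTH1P8 (230.8 counts, 97.5% identity) and FTH1P2 (225.5 counts, 97.1%), and together they took 1.74% to 2.8%. Adding them left the log2 fold change at 0.56 for FTL and 0.53 for FTH1. FTH1 also overlaps BEST1, a chloride channel gene on the opposite strand, with 737, 732 and 593 counts under MA and 220, 507 and 177 without it. The libraries kept strand, but the strand setting of the counting is not given in the sources used here, so reads of these overlapping genes may be mixed. With all BEST1 counts added, the log2 fold change of FTH1 was 0.54.

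Among the uptake genes, the transferrin receptor TFRC (ENSG00000072274, chr3:196027183-196082096, minus strand) gave 57.8, 45.6 and 61.9 FPKM under MA. Untreated samples were at 60.9, 53.4 and 70.0 FPKM. The groups overlapped, replicate 2 was the lowest of each group, and the log2 fold change was -0.13 (SE 0.13). With the GC trend removed it was 0.05, so its sign was not fixed (GC content 41.8%). STEAP3 (ENSG00000115107, chr2:119223831-119265652, plus strand), the endosomal ferrireductase, was at 7.05, 8.20 and 6.79 FPKM after MA. Its untreated values of 8.65, 8.53 and 8.26 FPKM were all higher, by little: the log2 fold change was -0.16 (SE 0.13), and -0.29 either with the GC trend removed or without MA replicate 2. The antisense gene STEAP3-AS1, which overlaps it, held at most 54 counts in any sample. SLC11A2 (ENSG00000110911, chr12:50979401-51028566, minus strand), also called DMT1, carries divalent metals across membranes. It was at 5.09, 4.12 and 5.19 FPKM under MA and 5.27, 4.31 and 5.03 FPKM without it. These ranges overlapped almost fully and the log2 fold change was 0.01 (SE 0.12).

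The only iron exporter known in mammals, ferroportin (SLC40A1, ENSG00000138449, chr2:189560579-189583758, minus strand), was barely read. It had 19, 19 and 10 estimated counts after MA and 19, 19 and 19 without it, which is 0.0331 to 0.0640 and 0.0507 to 0.0607 FPKM. The groups overlapped, the gene was below the filter and no fold change was fitted.

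Of the genes behind the IRE-binding proteins, ACO1 (ENSG00000122729, chr9:32384603-32450836, plus strand), whose product is a cytosolic aconitase when it holds an iron-sulfur cluster and IRP1 when it does not, gave 14.2, 12.4 and 14.4 FPKM under MA. Untreated samples were at 11.6, 10.6 and 10.8 FPKM. The groups did not overlap, and the log2 fold change was 0.35 (SE 0.08), 1.27-fold, and 0.37 without MA replicate 2. IREB2 (ENSG00000136381, chr15:78437431-78498209, plus strand), whose product IRP2 is controlled by degradation, was at 3.61, 2.87 and 4.38 FPKM under MA. Without MA it was at 4.30, 3.65 and 4.52 FPKM. The groups overlapped and the log2 fold change was -0.17 (SE 0.15), which became 0.04 with the GC trend removed (GC content 40.8%). NCOA4 (ENSG00000266412, chr10:46005088-46030714, minus strand), the receptor that carries ferritin to lysosomes, gave 27.3, 19.4 and 30.8 FPKM under MA and 27.2, 27.9 and 29.9 FPKM without it. Its low value was that of MA replicate 2, the groups overlapped, and the log2 fold change of -0.11 (SE 0.14) was 0.03 without that library.

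**Figure D2:**
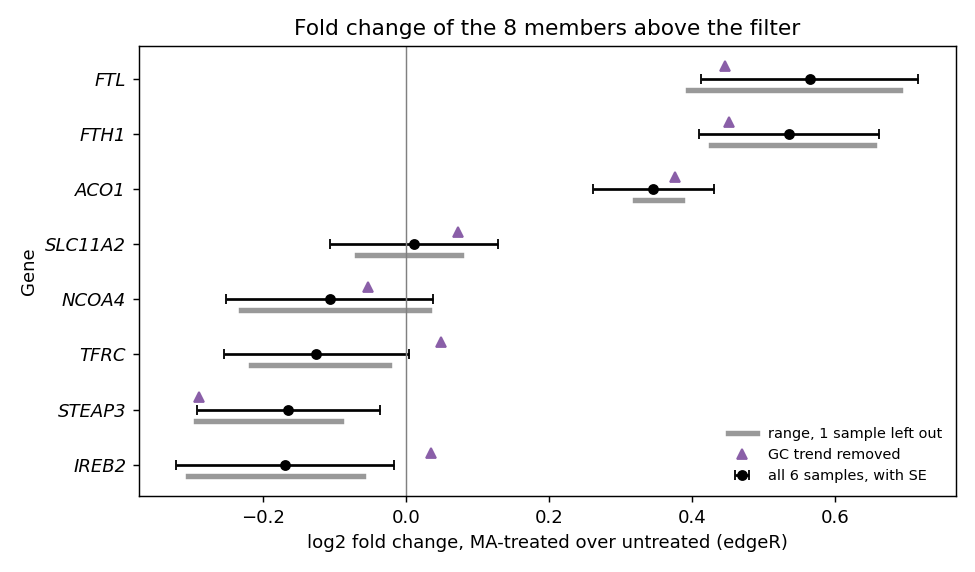
Log2 fold change (MA-treated over untreated, edgeR) of the 8 genes above the filter, with black points and bars for the value and its standard error over 6 samples, grey bars for the range when 1 sample is left out, and purple triangles for the value with a GC trend removed. FTL, FTH1 and ACO1 lie above 0 in all of these, STEAP3 below 0, and TFRC and IREB2 change sign with the GC trend removed.

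Counted by the calls used for the whole table, 3 of the 8 members (FTL, FTH1 and ACO1) were higher after MA at an unadjusted p under 0.05, and 0 were lower. Of all 17774 genes tested, 5.37% were called higher and 5.86% lower in this way. By non-overlap of the FPKM values, 3 members were higher and 1 lower (STEAP3), where 8.79% and 11.1% of all tested genes were higher and lower. The rule of the study (2-fold or more in either direction, at p under 0.05) took 0 members and 1.92% of all genes. After adjustment over all genes, 0 members and 0.0394% of all genes were called. Since the members were chosen on this comparison, nothing is read from these counts. The median log2 fold change of the 8 members was -0.05, and that of all tested genes was -0.002.

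Ratios within a sample show how the members stood to each other. FTH1 over TFRC in FPKM was 6.99, 7.37 and 4.76 under MA, and 4.15, 4.44 and 3.47 without it. The groups did not overlap, and the means were 6.37 ± 1.41 and 4.02 ± 0.497. FTH1 over NCOA4 was 13.9 ± 3.96 against 8.63 ± 0.592, again without overlap, but MA replicate 3 (9.57) lay close to untreated replicate 1 (9.28). ACO1 over IREB2 was 3.92, 4.31 and 3.28 under MA and 2.70, 2.90 and 2.38 without it, with no overlap. In these 3 ratios MA replicate 2 was the highest sample and MA replicate 3 the lowest of its group.

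**Figure D3:**
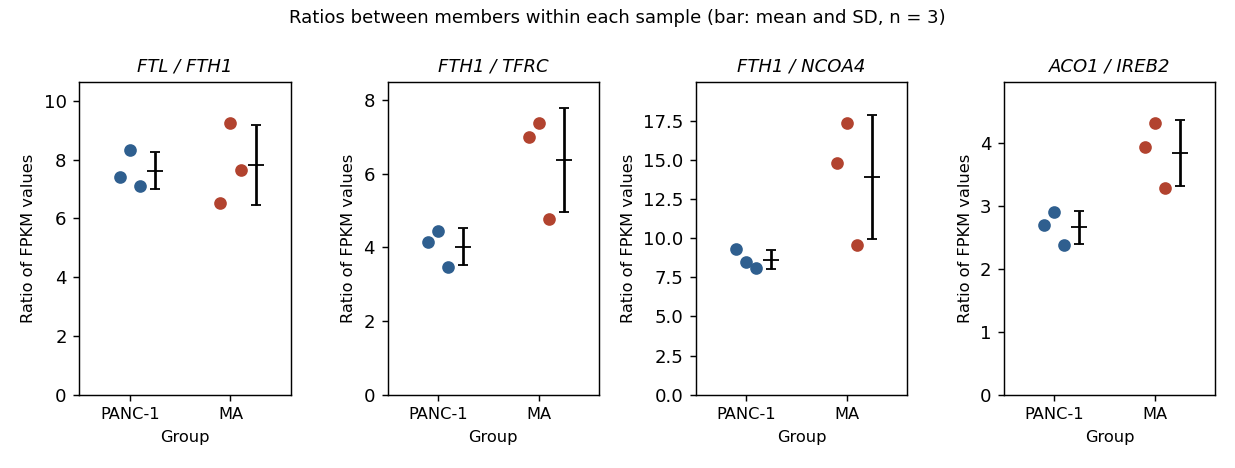
Ratios of FPKM values between pairs of members in each sample, untreated in blue and MA-treated in red, with the mean and SD of each group (n = 3) beside the points and each axis starting at 0. The ratio of FTL to FTH1 overlaps between the groups, and the other 3 ratios do not.

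Across the 6 samples, members varied together in a pattern that mixes group and library, so these correlations of log2(FPKM + 0.1) are descriptions of 6 points that share their libraries and group labels. FTL and FTH1 had a Pearson r of 0.843. TFRC followed IREB2 (0.949), NCOA4 (0.862) and SLC11A2 (0.831), while FTL ran against IREB2 (-0.838) and TFRC (-0.776). ACO1 and STEAP3 ran against each other (-0.908). Among 11470 genes averaging 1 FPKM or more, the 3 most like FTL were TMEM127 (r = 0.999), ARHGAP23 (0.999) and TRPC4AP (0.994). TMEM127 was at 16.3, 17.5 and 15.3 FPKM under MA and 14.0, 14.5 and 13.7 FPKM without it. For FTH1 they were PSMB1 (0.997), BMP8B (0.994) and STX3 (0.993), and TFRC was followed by SEC23A (0.996) and IPO11 (0.994). With so many genes and 6 samples, high values of r arise readily.

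The question of what the rest of iron metabolism did was put to 99 iron-related genes outside the members, in 8 lists, of which 88 passed the filter. These were tested with edgeR's quasi-likelihood test, with Benjamini-Hochberg adjustment over all 17774 genes. None was called after adjustment (0 of 88), 16 had an unadjusted p under 0.05, and DESeq2 called 2 after adjustment, SLC25A37 and TXNRD1. At an unadjusted p under 0.05, 10 were higher and 6 lower, which is 10 and 6 of 88 beside the 5.37% and 5.86% of all tested genes. By non-overlap 11 of 88 were higher and 6 of 88 lower, beside 8.79% and 11.1% of all tested genes. The fold rule of the study called 0. Without MA replicate 2, 6 of the 16 calls at an unadjusted p under 0.05 were lost and 4 were gained. The gained calls were PCBP1, EPAS1 (log2 fold change -0.26, unadjusted p = 0.0463) and BOLA1 (-0.83, unadjusted p = 0.0267), all lower, and NDUFAB1, which was higher (0.22, unadjusted p = 0.013). All but PCBP1 are named after their values were seen. Of the 88 log2 fold changes 59 were above 0, with a median of 0.11, beside a median of -0.002 over all tested genes. Genes of similar level were not compared, and whether the difference is particular to iron genes was not tested.

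Of 10 heme iron genes, all tested, 4 were higher at an unadjusted p under 0.05, 0 were lower, 6 did not pass, and the median log2 fold change was 0.34. HMOX1, the inducible heme oxygenase that frees iron from heme, was at 18.5, 15.7 and 12.1 FPKM under MA and 10.3, 11.3 and 11.3 FPKM without it. All MA samples lay above all untreated ones, with MA replicate 3 close to them, and the log2 fold change was 0.53 (SE 0.17; unadjusted p = 0.0159, edgeR adjusted p = 0.414). HMOX2, the constitutive heme oxygenase, gave 15.0, 16.3 and 16.0 FPKM under MA and 13.5, 10.1 and 11.1 FPKM without it (log2 fold change 0.49, SE 0.14; edgeR adjusted p = 0.388). SLC48A1, which moves heme out of endolysosomes, was at 7.05, 9.19 and 8.38 FPKM under MA against 4.94, 6.39 and 5.74 FPKM. Its log2 fold change was 0.57 (SE 0.16; edgeR adjusted p = 0.388), and its groups did not overlap. BLVRB, a biliverdin reductase that works downstream of heme oxygenase, had a log2 fold change of 0.41 (SE 0.17; edgeR adjusted p = 0.439) but only 0.20 without MA replicate 2 (unadjusted p = 0.0523). With the GC trend removed the log2 fold changes were smaller, at 0.39 for HMOX1, 0.38 for HMOX2, 0.45 for SLC48A1 and 0.25 for BLVRB (GC content 56.4% to 61.3%). All 4 were still called at an unadjusted p under 0.05 (edgeR), while higher calls over all genes went from 954 to 1333. BLVRA, the most abundant gene of the list, was at 39.6 ± 1.63 FPKM after MA and 39.2 ± 2.80 FPKM without it. HMOX2 shares its locus with NMRAL1 on the opposite strand, whose counts amounted to 67.3% of those of HMOX2, so the caution on strand applies to it.

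The NRF2 axis, an oxidative stress programme whose known targets include ferritin genes, and enzymes acting on lipid peroxides or membrane lipids formed a list of 13 genes, all tested. The list was named for lipid peroxide defence, but not every gene in it is a defence gene: LPCAT3 builds membrane lipids. At an unadjusted p under 0.05 (edgeR), 4 were higher, 1 was lower and 8 did not pass. With the replicate number fitted as a block 5 were higher, KEAP1 in addition, and 1 lower. Over all tested genes that block moved the calls from 954 higher and 1041 lower to 978 and 1237. TXNRD1, cytosolic thioredoxin reductase, was at 36.6, 37.5 and 35.9 FPKM under MA and 26.9, 24.8 and 26.7 FPKM without it. The 3 MA values lay close together and far above the untreated ones (log2 fold change 0.53, SE 0.09; unadjusted p = 0.000434, edgeR adjusted p = 0.188). TXNRD1 overlaps the pseudogene RPL18AP3 on the same strand, which held 30.9% as many counts. SRXN1, which repairs peroxiredoxins, was at 73.9, 66.6 and 65.7 FPKM against 55.1, 59.6 and 51.4 FPKM, with a log2 fold change of 0.35 (SE 0.10; edgeR adjusted p = 0.388). AIFM2, known as FSP1, which protects membrane lipids through ubiquinol, had a log2 fold change of 0.38 (SE 0.11), and LPCAT3, which puts polyunsaturated chains into phospholipids, one of 0.41 (SE 0.11). For both, edgeR's adjusted p was 0.388 and the FPKM groups did not overlap. Each overlaps a gene on the opposite strand, H2AFY2 with 49.2% as many counts as AIFM2 and EMG1 with 88.2% as many as LPCAT3. GPX4, the lipid peroxide reductase and the most abundant gene of the list, did not pass, at 85.7 ± 11.6 FPKM after MA and 76.2 ± 5.57 FPKM without it. The lower gene was NFE2L2, which encodes NRF2 itself and is named here after its values were seen. It gave 12.7, 9.52 and 14.6 FPKM under MA and 16.1, 15.8 and 16.0 FPKM without it (log2 fold change -0.35, SE 0.13; edgeR adjusted p = 0.433). The lowest value was that of MA replicate 2, without which the log2 fold change of NFE2L2 was -0.23, and with the GC trend removed it was -0.25. Other known targets of NRF2 did not pass: NQO1, also named after its values were seen, was at 43.3 ± 2.46 and 41.9 ± 9.49 FPKM, and GCLM at 5.18 ± 0.48 and 5.72 ± 0.131 FPKM.

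Promoters were searched for TGACNNNGC, the core letters of the antioxidant response element that NRF2 binds, on both strands of the RefSeq windows from 250 bases before to 50 bases after each start (GRCh38.p14). Elements farther from the start were not searched. A match is not a measurement of binding, and a missing match says nothing about binding by NRF2. Counting a gene once, with a match in any of its windows, 4384 of 27305 genes held the motif (16.1%). So did 14 of 84 matched iron genes outside the members (16.7%) and 1 of 8 matched members (12.5%), NCOA4. FTH1 had no entry in the promoter table. Of those 14, 2 were higher after MA at an unadjusted p under 0.05 (TXNRD1 and AIFM2), 0 were lower, 9 did not pass, GCLM and KEAP1 among them, and 3 were not tested. KEAP1 had a log2 fold change of 0.40 (edgeR unadjusted p = 0.0617). It was called higher when the replicate number was fitted as a block (0.38, edgeR unadjusted p = 0.0267). All matches of TXNRD1 and AIFM2 are shown, with those of GCLM and KEAP1, known targets or partners of NRF2 that did not pass, with the motif or its reverse complement in capitals and sequences on the gene's strand.
TXNRD1, plus strand, chr12:104215670-104215698: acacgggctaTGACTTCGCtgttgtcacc
TXNRD1, the same promoter, chr12:104215761-104215789: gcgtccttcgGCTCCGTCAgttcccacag
TXNRD1, another promoter, chr12:104286920-104286948: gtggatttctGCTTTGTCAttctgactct
AIFM2, minus strand, chr10:70132829-70132857: cagcacgagtGCTGAGTCAcgccccgccc
GCLM, minus strand, chr1:93909446-93909474: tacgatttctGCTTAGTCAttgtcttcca
KEAP1, minus strand, chr19:10502784-10502812: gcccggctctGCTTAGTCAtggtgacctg
KEAP1, the same promoter, chr19:10502807-10502835: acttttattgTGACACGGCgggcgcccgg

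**Figure D4:**
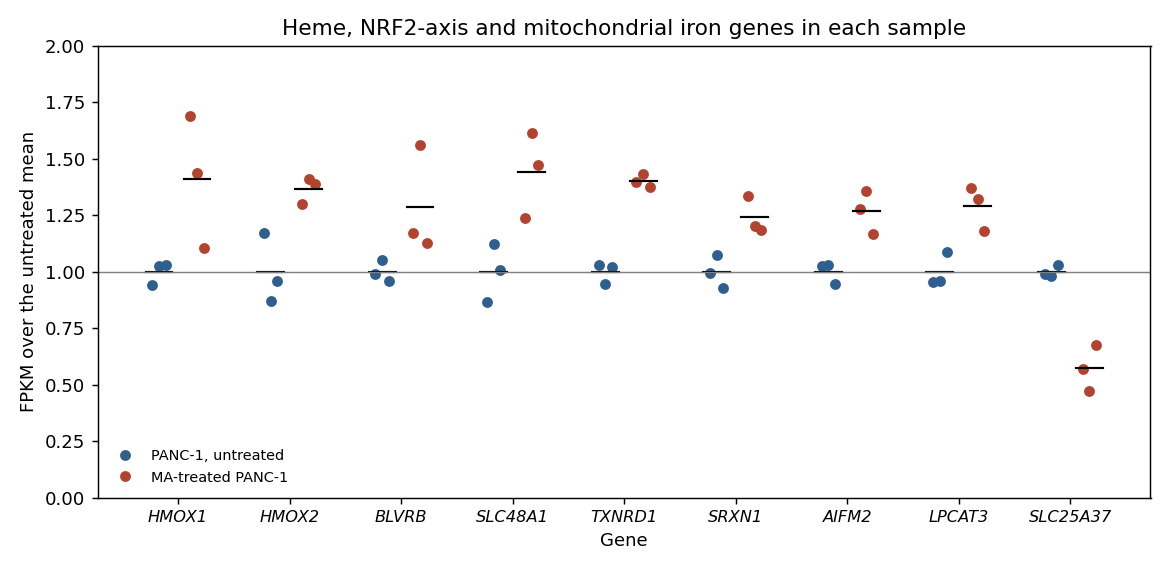
FPKM of 9 genes outside the members, each divided by the mean of its 3 untreated samples, with untreated samples in blue, MA-treated in red and black lines at the group means. The genes were picked among those with an unadjusted p under 0.05 (edgeR) in this same comparison, so their separation partly reflects that choice. All 3 MA samples lie above the 3 untreated samples for the first 8 genes and below them for SLC25A37. Called genes of these lists that are not drawn are NFE2L2 (lower), FDX2 (higher) and LYRM4, whose groups overlapped.

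Mitochondrial iron import and iron-sulfur cluster assembly made up the longest list, 37 genes, all tested, with 1 higher, 2 lower and 34 not passing. With the GC trend removed there were 5 higher and 3 lower, while over all genes the calls went from 954 higher and 1041 lower of 17774 to 1333 higher and 1158 lower of the 17721 with a GC value. SLC25A37, mitoferrin-1, which imports iron into mitochondria, had the smallest unadjusted p of all 88 genes. It was at 4.68, 3.91 and 5.59 FPKM under MA and 8.16, 8.12 and 8.48 FPKM without it. Every MA sample was well below every untreated one, and the log2 fold change was -0.77 (SE 0.12; unadjusted p = 0.000365, edgeR adjusted p = 0.180). LYRM4, a partner of the cysteine desulfurase, had a log2 fold change of -0.78 (SE 0.32; edgeR adjusted p = 0.441), but its groups overlapped because untreated replicate 2 (1.40 FPKM) was far below the other untreated samples (3.44 and 3.31 FPKM), and without MA replicate 2 the log2 fold change was -0.77 at an unadjusted p of 0.107. FDX2, a ferredoxin of cluster assembly, was at 11.5 ± 1.19 and 9.06 ± 0.333 FPKM (log2 fold change 0.38, SE 0.15; edgeR adjusted p = 0.435). Without MA replicate 2 the value for FDX2 was 0.25 (unadjusted p = 0.0675, edgeR), and with the GC trend removed 0.23. HSPA9, the mitochondrial chaperone and most abundant gene of the list, was at 104.2 ± 11.9 FPKM after MA and 99.4 ± 8.72 FPKM without it.

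None of the 4 genes of IRP control, which form or serve the ubiquitin ligase of IRP2, passed (0 of 4 in the edgeR test, adjusted or not), and the most abundant, CUL1, was at 17.7 ± 3.48 and 19.3 ± 1.59 FPKM. With the GC trend removed, which raised the number of higher calls over all genes to 1333, 2 of the 4 were higher, FBXL5, the iron-sensing subunit (log2 fold change 0.47, unadjusted p = 0.0211, against 0.27 without that step), and RBX1 (0.28, unadjusted p = 0.0177, against 0.21), both named after their values were seen.

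Uptake genes outside the members gave 0 higher and 2 lower of 11 tested. STEAP1, of the same family as STEAP3, was at 5.67, 4.61 and 5.08 FPKM under MA and 6.72, 7.73 and 6.42 FPKM without it. Its groups did not overlap (log2 fold change -0.41, SE 0.16; edgeR adjusted p = 0.433), but with the GC trend removed the value was -0.17 at an unadjusted p of 0.343, and without MA replicate 2 it was -0.37 at an unadjusted p of 0.0542. SCARA5, a ferritin receptor, was low throughout, at 0.268 ± 0.0739 and 0.549 ± 0.247 FPKM, and its groups overlapped (log2 fold change -0.99, SE 0.39; edgeR adjusted p = 0.435). Without MA replicate 2 it was -0.88 at an unadjusted p of 0.108. SLC39A14, which takes up iron not bound to transferrin, was the most abundant of the list and uneven: replicate 2 was at 45.2 FPKM under MA and 46.2 FPKM without it, against 16.9 to 23.0 FPKM in the other 4 samples. In the list of storage, iron chaperones and ferritin turnover 0 of 4 tested genes passed, and PCBP1, the chaperone that delivers iron to ferritin and the most abundant, was at 219.6 ± 7.38 and 242.4 ± 8.56 FPKM. All MA samples of PCBP1 were below the untreated ones (log2 fold change -0.10, SE 0.09; edgeR unadjusted p = 0.277). It was called lower without MA replicate 2 (-0.17, unadjusted p = 0.0305) and with the GC trend removed (-0.20, unadjusted p = 0.00942). Of the export and hepcidin genes 5 of 11 were tested and HFE, a regulator of hepcidin that binds the transferrin receptor, was lower, at 0.80, 1.47 and 1.96 FPKM under MA and 2.39, 2.08 and 2.88 FPKM without it (log2 fold change -0.76, SE 0.32; edgeR adjusted p = 0.443). Without MA replicate 2 the log2 fold change of HFE was -0.83, no smaller, at an unadjusted p of 0.0788 with fewer samples. BMP6, the most abundant of that list, was at 12.1 ± 0.995 and 11.2 ± 0.71 FPKM. Hepcidin itself (HAMP), the oxidases CP, HEPH and HEPHL1, transferrin (TF) and mitochondrial ferritin (FTMT) were among the 11 genes under the filter.

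**Figure D5:**
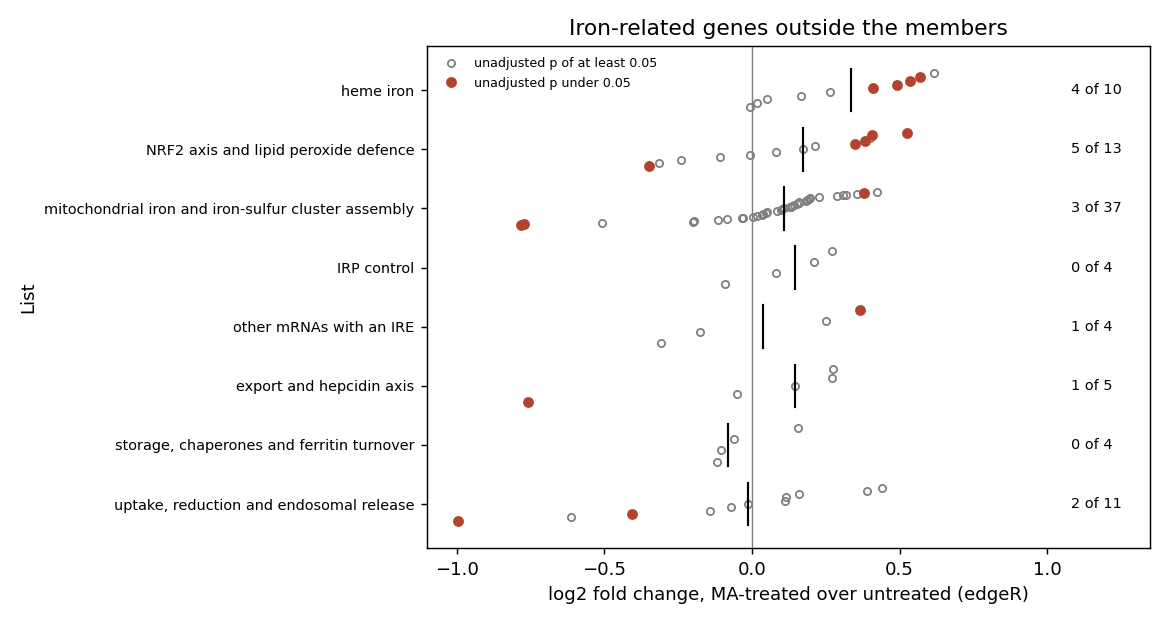
Log2 fold change (MA-treated over untreated, edgeR) of the 88 tested iron-related genes outside the members by list, with filled red points for an unadjusted p under 0.05, open points for the others, a black line at each list's median, and the number of calls at the right. Heme iron has 4 of 10 filled, all above 0, and none of the 88 genes passed after adjustment.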

How the data were processed

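The authors deposited FPKM values and estimated counts per gene for 6 samples, mapped by name to 3 MA-treated and 3 untreated cultures (0 sample columns unmapped); the submitters' processing notes name cutadapt 1.9, HISAT2 2.0.4, StringTie 1.3.4d, edgeR and DESeq2 without roles. Deposited counts were treated as estimated (expected) counts, whole numbers on StringTie's scale. The authors' own fold changes and p-values were not used.

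Genes averaging 0.1 FPKM or more were tested with edgeR 4.0.16 (R 4.3.3; TMM, quasi-likelihood F-test, Benjamini-Hochberg over 17774 genes); SE is the log2 fold change over the root of F. The gene-wise tests were tested on simulated data. The 9 members and all lists were chosen with earlier results of these data known. Members are always named. Of each list, genes with an unadjusted p under 0.05 (at most 4) and the gene of highest mean FPKM are named (some genes that the rule takes are not reported here), with the 2 pseudogenes of highest count per ferritin gene and the 3 genes most correlated with FTL, FTH1 and TFRC. Alternatives were DESeq2 1.42.0, limma 3.58.1 on log2(FPKM + 0.1, 1 or 0.01), RLE factors, other filters, a replicate block, counts divided by 3, samples left out and, chosen after seeing the data, a GC trend removed (loess, span 0.5), BEST1 added to FTH1 and levels per longest transcript. Gene positions are as in the deposited table, and IRE positions as in GENCODE 29, both on GRCh38. The number of samples, more than counting depth, limits the precision.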

Additional observations from a re-analysis of the deposited data

How the results depend on the processing

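With 3 samples a group the calls were unstable. Of the iron genes outside the members, 10 were higher at an unadjusted p under 0.05, 17 with the GC trend removed and 7 to 16 with 1 sample left out; over all tested genes the same count moved too, from 954 to 1333 and to 551 to 1491. The 6 lower became 3 with the replicate block (HFE, SLC25A37 and NFE2L2), while over all tested genes 1041 became 1237. With 1 sample left out the 6 lower became 1 to 6, with 1 left without PANC-1 replicate 1. Over all tested genes 1041 then became 621 to 1722. By the fold rule, 0 became 2 with no filter (CP and SCARA5), 1 with the GC trend removed (SCARA5) and 0 to 2 with 1 sample left out (HFE, SCARA5 or LYRM4). After adjustment, 0 became 2 with DESeq2 (SLC25A37, adjusted p = 7.6e-05, and TXNRD1, adjusted p = 0.0018). HMOX2, SLC48A1, SLC25A37, TXNRD1, SRXN1, AIFM2 and LPCAT3 kept an unadjusted p under 0.05 in all 16 alternatives run. HMOX1 lost it in 2 (unadjusted p = 0.0637 without MA replicate 1). Only genes already called in the main fit were followed in this way, and the alternatives reuse the same samples, so this is not independent support. How many of all called genes kept their call was not counted, so nothing particular to iron genes is read from it.

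FTL, FTH1 and ACO1 stayed above 0 in all 17, 18 and 16 alternatives, with log2 fold changes of 0.39 to 0.69, 0.43 to 0.65 and 0.29 to 0.39, and STEAP3 below 0 in all 16 (-0.29 to -0.09). IREB2 moved to 0.0353 with the GC trend removed; its range with 1 sample left out was -0.31 to -0.06. Over all tested genes, the 7 adjusted calls became 263 with DESeq2, 34 with the GC trend removed, 12 at a mean FPKM of at least 1, 0 with the replicate block and 3 to 24 with 1 sample left out. Same-numbered samples deviated together only weakly (correlations of 0.029, 0.05 and 0.072). Each MA sample still deviated most with its own number, and correlations between different numbers were all below 0 (-0.048 to -0.001). The labels do not call the numbers pairs and the main fit did not use them. Whether same-numbered cultures share a batch was not tested. The replicate block gave log2 fold changes of 0.55 for FTL and 0.52 for FTH1. By TPM all 9 members kept their rank. No value came from summing identifiers of 1 name, since each member has 1. The cause of these changes was not tested.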
